A study of Mus musculus with 6 samples.

Results

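Aldehyde dehydrogenases and aldo-keto reductases were examined in B16F10, an established line of mouse melanoma cells. The genes were chosen by symbol (Aldh or Akr followed by a digit), with symbols of pseudogenes, Aldh1l2 and Aldh18a1 left out, which gave 36 of the 27179 genes of the deposited table: 19 aldehyde dehydrogenases and 17 aldo-keto reductases. RNA came from 3 cultures treated for 6 h with 0.01% OLO, plain olive oil, and from 3 cultures treated for 6 h with 0.01% OZO, olive oil exposed to ozone. The cells were labelled as wild type, were of 1 line, and no transgene is named for them. The value analysed is the mean log2 CPM (a read count scaled to library size, with 0.5 reads added) over all 6 libraries, as the authors deposited it. It pools both oils, so it gives the level of a gene in these cells and not a difference between OZO and OLO, which was not analysed here.

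Aldehyde dehydrogenases oxidise aldehydes to acids with NAD or NADP, and aldo-keto reductases reduce aldehydes and ketones to alcohols, mostly with NADPH. Both families act on reactive aldehydes that form when membrane lipids are peroxidised, and some members have narrow tasks in retinoic acid, steroid, amino acid or folate metabolism. Many of these enzymes are best known from liver, and several aldo-keto reductase genes lie in tandem arrays of close copies.

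The cells were of the labelled lineage by their markers. All 9 melanocyte genes examined had a mean between 5.30 (Gpr143) and 12.78 (Dct) on the log2 CPM scale. None of the 4 keratinocyte genes exceeded -4.77, and none of the 3 hepatocyte genes exceeded -0.52. In the leukocyte, endothelial and fibroblast lists Lyz2 (0.84), Pecam1 (0.28), Col1a1 (0.76) and Pdgfra (1.71) had low means, whereas Ptprc, Cdh5 and Col3a1 lay at -3.83, -3.31 and -4.18. Libraries held 19641946 reads as a geometric mean after scaling, and 1 CPM thus stood for 19.6 reads per library. The depth and value of each library were not analysed here, hence no spread between cultures, SD or test can be given, and the differences between genes below are descriptions. Counting alone gives the means of the expressed members a standard error of at least 0.0067 (Akr1a1) to 0.13 (Akr1b7) on the log2 scale.

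Of the 36 genes, 20 were expressed, taken as a mean log2 CPM of 0 or more, and 16 were silent by this limit. The expressed share, 55.6%, lay near that of all genes (43.7%) and of protein-coding genes (53.8%), so the count of expressed members is not a result about these families. By family, 12 of 19 aldehyde dehydrogenases (63.2%) and 8 of 17 aldo-keto reductases (47.1%) were expressed. The limit fell in a gap, since Akr1b7 lay just above it at 0.05 and Aldh1a1, the next gene down, at -1.30. Together the 36 genes made up 0.11% of the summed CPM of all genes. The plot of levels per gene shows the order of all of them.

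**Figure D1:**
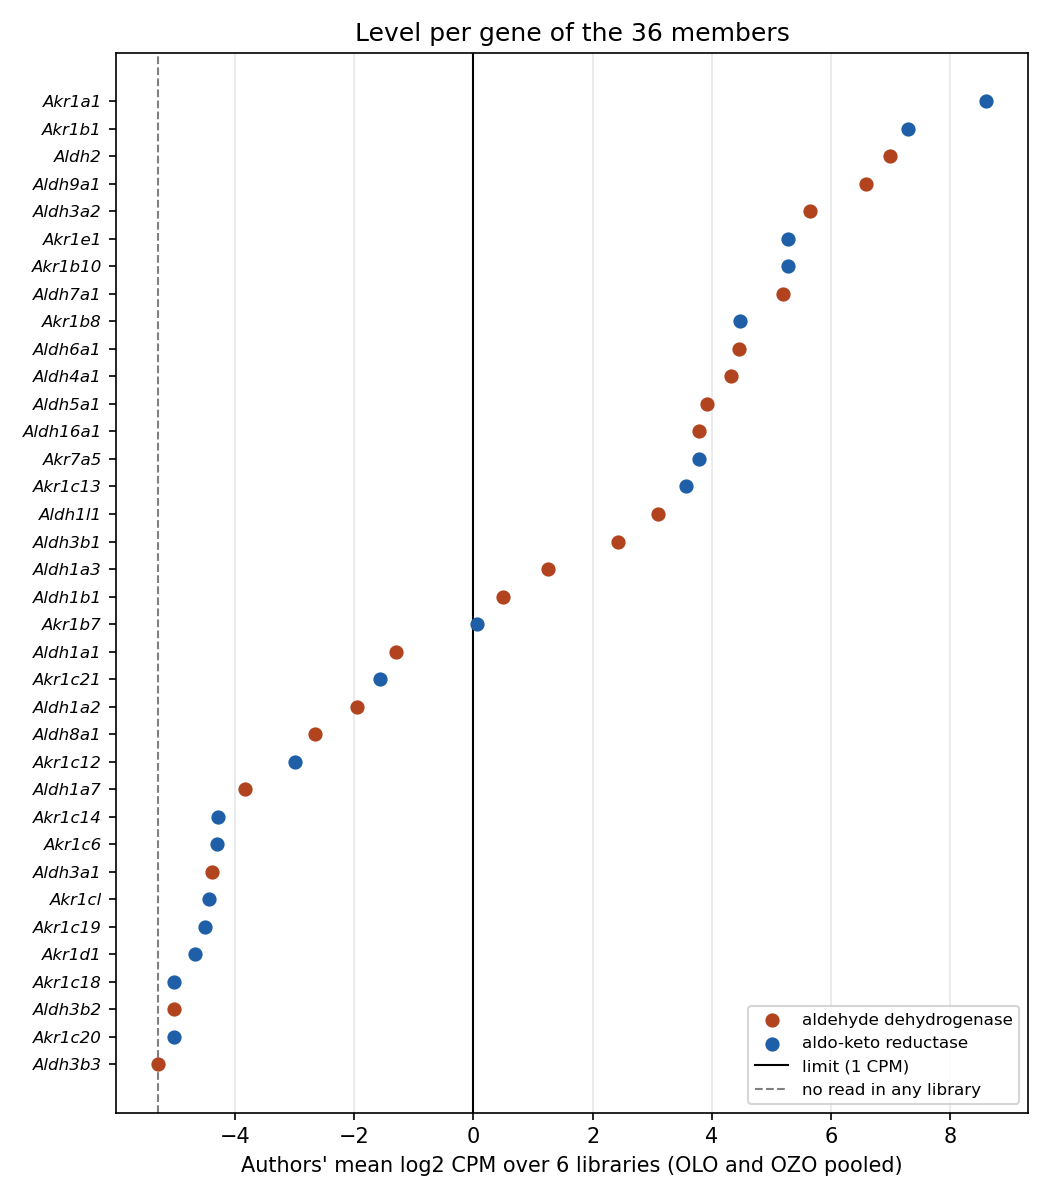
Authors' mean log2 CPM of each of the 36 genes (x axis, 1 point per gene, no error available), coloured by family, with the limit at 0 and the value of genes without reads. Akr1a1 stands highest at 8.60 and Aldh3b3 sits on the line of no reads at -5.30.

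Because a longer transcript yields more reads, levels of different genes were compared after subtraction of the log2 length in kilobases, with the length taken as all annotated exon bases of the gene. On this scale 3 genes took 64.4% of the summed level of the 36. Akr1a1 alone took 46.8%, Aldh9a1 took 9.38% and Aldh2 took 8.21%. Akr1b1 followed with 6.20%. Most stretches of read length in its transcript with the longest coding sequence recur in other annotated genes. The shares and the order after Akr1a1 thus depend on how reads from these stretches were counted. The 16 silent genes together took 0.25%. The median of the 20 expressed genes was 2.88 log2 CPM per kilobase, against 2.86 for the 11477 genes of the table at the limit that had a length, and 10 of the 20 lay above that median. The 8 expressed aldo-keto reductases had a median of 3.43 and the 12 expressed aldehyde dehydrogenases one of 1.67.

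**Figure D2:**
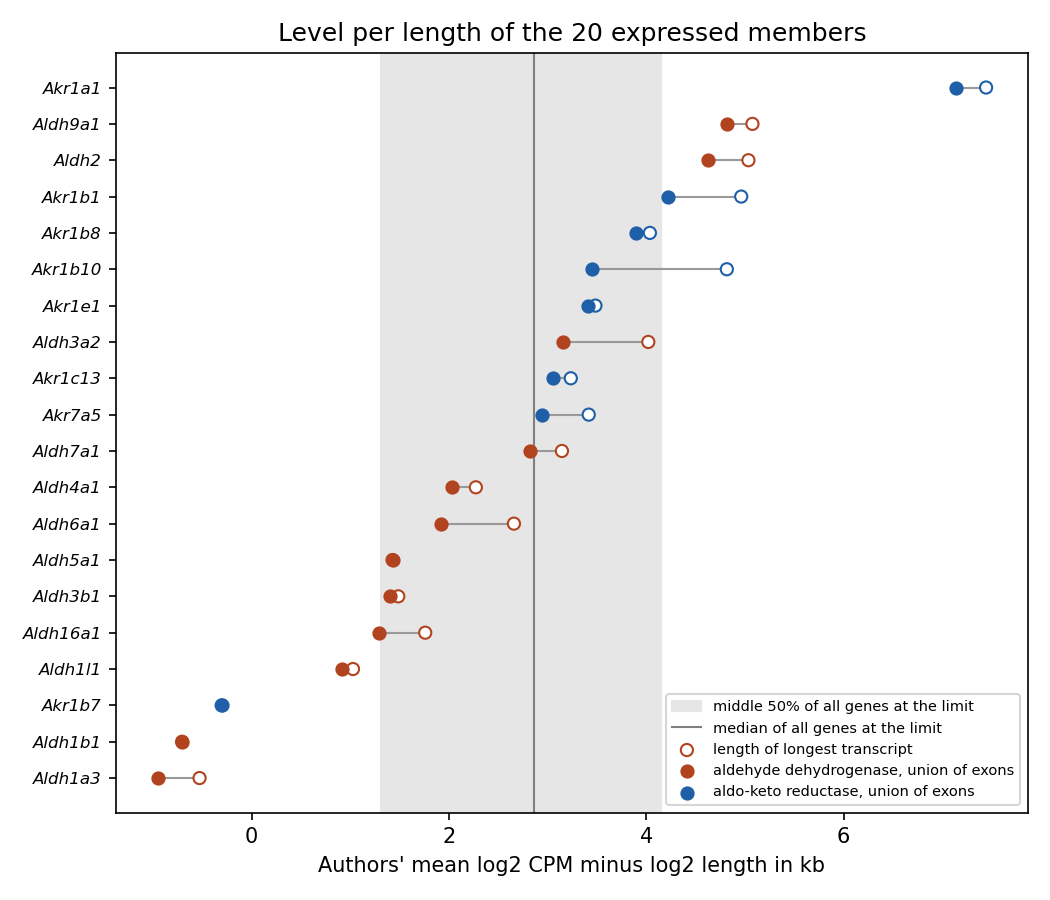
Level per length of the 20 expressed genes (x axis, log2 CPM minus log2 kilobases), with filled points for the union of exons and open points for the longest transcript. Akr1a1 lies at 7.14, far to the right of the band that holds the middle 50% of all genes at the limit (1.31 to 4.15).

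Akr1a1, the general NADPH-dependent aldehyde reductase, led both families. Its gene spans 116636510 to 116651680 on the minus strand of chromosome 4 (coordinates are those of GRCm38, also called mm10). Its mean was 8.60 log2 CPM, or 388 CPM, and it ranked 350 among the 27179 genes. Per kilobase it stood at 7.14 on the log2 scale, above 98.2% of the genes at the limit. It stood at 4.99 times Aldh9a1, the next member per kilobase with the reads as the authors counted them. By the mean log2 CPM without length scaling the next member was Akr1b1 (7.29). Windows of 150 bases, the read length, were taken from the Akr1a1 transcript with the longest coding sequence. None of them recurred in a transcript of another annotated gene. Exon bases of Akr1a1 outside that transcript were not searched.

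All 4 genes of the aldose reductase group were expressed by the limit. Akr1b7 exceeded it by 0.05 on the log2 scale, less than its counting error of at least 0.13. Akr1b1, called Akr1b3 in GENCODE, is aldose reductase itself, which turns glucose into sorbitol. It had 157 CPM and 4.22 log2 CPM per kilobase. Of the 150-base windows of its transcript with the longest coding sequence, 62.6% were also present in Gm12138, Gm38056, Gm6644 or Gm6736. Its level thus depends on how reads with several matches were counted, which the sources used here do not give. Akr1b8 and Akr1b10, reductases close to aldose reductase, had 22.3 and 38.6 CPM, and 3.89 and 3.45 log2 CPM per kilobase. Akr1b7, described first in the vas deferens, had 1.04 CPM and -0.30 log2 CPM per kilobase, a level that Akr1b8 exceeded 18.4-fold and Akr1b10 13.5-fold. With the length of the longest transcript these folds were 20.3 and 34.8, so that Akr1b10 stood above Akr1b8 and their order depends on the length used. Akr1b7 and Akr1b10 had 89.2% identical coding bases. Of the exon bases of Akr1b7, 27.2% overlapped the pseudogene Gm13857 on the opposite strand.

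The hydroxysteroid group, whose enzymes reduce or oxidise steroid hormones, was silent apart from 1 gene. Akr1c13 had a mean of 3.57 log2 CPM, or 11.9 CPM, whereas the other 8 genes of the group lay at or below -1.57. Akr1c12 is its closest relative, with 96.2% identical coding bases and an identical run of 228 bases. Nevertheless, Akr1c12 had 0.125 CPM, and per kilobase Akr1c13 was 83.4-fold higher. Only 7.10% of the 150-base windows of either transcript were present in the other, so most positions could tell the pair apart. Akr1c21 had 0.337 CPM and was the highest of the silent aldo-keto reductases. Akr1d1, the steroid 5-beta reductase of bile acid synthesis, was silent as well, at -4.68 log2 CPM.

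The promoter windows of this pair are shown because the genes differ in level while the windows hardly differ in sequence. Each is 300 bases long (RefSeq, GRCm38.p6, 250 bases before to 50 after the annotated start, written in the direction of the gene), at chr13:4279350-4279649 on the minus strand for Akr1c12 and chr13:4190937-4191236 on the plus strand for Akr1c13. Capitals mark bases that differ from the other gene in the alignment.
Akr1c12: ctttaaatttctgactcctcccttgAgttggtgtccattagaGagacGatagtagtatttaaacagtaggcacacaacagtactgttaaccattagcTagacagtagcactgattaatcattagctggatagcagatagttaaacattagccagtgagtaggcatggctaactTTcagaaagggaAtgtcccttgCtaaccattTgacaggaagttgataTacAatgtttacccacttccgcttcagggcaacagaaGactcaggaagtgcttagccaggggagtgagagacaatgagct
Akr1c13: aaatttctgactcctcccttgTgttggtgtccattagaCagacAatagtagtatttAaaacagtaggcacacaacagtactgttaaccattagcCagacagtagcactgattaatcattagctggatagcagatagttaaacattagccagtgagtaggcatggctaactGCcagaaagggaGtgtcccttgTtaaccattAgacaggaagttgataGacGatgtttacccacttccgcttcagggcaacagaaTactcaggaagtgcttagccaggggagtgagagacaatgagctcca
Over the 297 columns in which the windows overlap they differed by 12 substitutions and 1 inserted base, which leaves 95.6% identical, or 93.4% when the unmatched ends are counted. In the aldose reductase group, where Akr1b1 had no window, identical columns were counted with the ends. They made up 51.2% for Akr1b8 and Akr1b10, 51.2% for Akr1b7 and Akr1b10 and 50.1% for Akr1b7 and Akr1b8. These shares lay near the 50.6% of Akr1a1 and Aldh9a1, genes of different families. Which start site the cells used was not measured.

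The remaining aldo-keto reductases were Akr1e1 and Akr7a5, and both were expressed. Akr1e1 reduces 1,5-anhydrofructose and had 38.8 CPM, or 3.41 log2 CPM per kilobase. Akr1e1 and Akr1b10 were neighbours in the order per gene, 0.0046 apart on the log2 scale, less than the counting error of at least 0.021 of each. Akr7a5, which acts on succinic semialdehyde and on the dialdehyde of aflatoxin, had 13.8 CPM, or 2.94 log2 CPM per kilobase.

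Among the aldehyde dehydrogenases, the 5 enzymes grouped here under amino acid and carnitine pathways were expressed. Aldh8a1, which is also known from tryptophan breakdown, was grouped with the retinaldehyde enzymes and was silent at -2.65 log2 CPM. Aldh9a1, which makes the carnitine precursor gamma-butyrobetaine, lies on chromosome 1 from 167349991 to 167368532 on the plus strand and led the family per length with 4.82 log2 CPM per kilobase (95.7 CPM). Within the amino acid and carnitine group, Aldh7a1 of lysine breakdown came next per length with 36.5 CPM. Its 2.82 log2 CPM per kilobase lay just below the median of genes at the limit (2.86). Aldh4a1 of proline breakdown had a mean of 4.32 log2 CPM, Aldh6a1 of valine breakdown 21.9 CPM and Aldh5a1 of GABA breakdown 15.2 CPM. These last genes lay at 2.03, 1.92 and 1.43 log2 CPM per kilobase, also below that median. Parts of their exons overlap other annotated genes. The overlap covered 32.5% of the exon bases for Aldh4a1 (Gm21969, same strand), 18.6% for Aldh6a1 (Bbof1, opposite strand) and 14.1% for Aldh5a1 (4932702P03Rik, opposite strand). Of the 150-base windows of the Aldh4a1 transcript with the longest coding sequence, 40.2% were also present in Gm21969. The level of Aldh4a1 thus also depends on how reads with several matches were counted.

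The mitochondrial enzymes for acetaldehyde and lipid aldehydes, Aldh2 and Aldh1b1, were both at the limit but far apart. Aldh2, which also oxidises 4-hydroxynonenal, lies on chromosome 5 from 121566027 to 121593824 on the minus strand and had 127 CPM, or 4.63 log2 CPM per kilobase. Aldh1b1 had 1.41 CPM and -0.71 log2 CPM per kilobase, and so was 40.4-fold lower per kilobase. The transcript of Aldh1b1 with the longest coding sequence has 2 exons, the fewest of the family, whose median was 12.

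Of the fatty aldehyde enzymes, 2 of 5 were expressed. Aldh3a2, the fatty aldehyde dehydrogenase that degrades long-chain aldehydes at the endoplasmic reticulum, had 50.2 CPM and 3.16 log2 CPM per kilobase. Aldh3b1 had 5.39 CPM and was 3.39-fold lower than Aldh3a2 per kilobase, or 5.79-fold lower with the length of the longest transcript. Aldh3a1, the abundant dehydrogenase of the cornea, was silent at -4.38 log2 CPM although it lies next to Aldh3a2. Aldh3b2 and Aldh3b3 were silent too, with 1 read and 0 reads in all 6 libraries. Those genes share an identical coding run of 255 bases, so a read from it could not be placed with certainty. For Aldh3b3, 0 reads allow a level of up to 0.0255 CPM over the group of libraries (3 reads, counting error only).

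The retinaldehyde enzymes, which include those that make retinoic acid, were low or silent. Aldh1a3 was the 1 gene of 5 at the limit, with 2.39 CPM, and lay at -0.95 log2 CPM per kilobase. It was the lowest of the 20 expressed genes by the union of exons, whereas Aldh1b1 was lowest with the length of the longest transcript. Aldh1a1, Aldh1a2, Aldh8a1 and Aldh1a7 had 0.405, 0.257, 0.159 and 0.070 CPM. Among other genes of retinoid handling 4 of 9 were at the limit, a share near that of all genes, and the median was -0.14 log2 CPM. Rdh11 (55.1 CPM) was the highest of that list per kilobase, followed by Rdh10 and Crabp2 with 2.84 and 0.853 CPM per kilobase.

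Outside these groups, Aldh1l1, which oxidises formyl groups carried by folate, had 8.51 CPM (0.91 log2 CPM per kilobase). Aldh16a1 had 13.8 CPM (1.29 log2 CPM per kilobase). In a list of other carbonyl enzymes, 15 of the 24 genes found in the table (25 were listed) were expressed, beside 43.7% of all genes and 53.8% of protein-coding genes. Sord, which oxidises the sorbitol that aldose reductase makes, was the highest of them at 6.52 log2 CPM per kilobase, followed by Esd (5.28) and Adh5 (4.28), both of the pathway that clears formaldehyde through glutathione.

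For silent genes the mean itself limits the reads behind it, because 0.5 is added to every count and the product of (2 x reads + 1) over the libraries must be an odd whole number. For all 16 silent genes the recovered product was within 1.7e-07 of one. Akr1c18, Akr1c20 and Aldh3b2 had 1 read each in all libraries together. Akr1d1 had 6 reads, all of them in 1 library, since its product, 13, is a prime number. Akr1c6, Aldh3a1, Akr1cl and Akr1c19 had at least 5, 4, 5 and 3 reads and at most 31, 22, 17 and 13. Akr1c14 (product 69) had between 12 and 34 reads, of which at least 11 were in 1 library and none in at least 4. Aldh1a7 (product 435) had at least 17 reads, with at least 14 in 1 library. Aldh1a1 was uneven as well: at least 69 of its at least 93 reads were in 1 library, while the geometric mean of reads plus 0.5 was 7.96 per library. Akr1c21 had at least 14 reads in 1 library and at least 41 in all. Akr1c12, Aldh1a2 and Aldh8a1 had at least 13, 30 and 17 reads in all. Which library held these reads, and thus which oil, cannot be told from the mean.

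Position set several silent genes beside expressed ones. Of the 36 genes, 22 lay within 1 Mb of another member, in 6 neighbourhoods, and 10 of these were expressed, as were 10 of the 14 that lay alone, beside 43.7% of all genes and 53.8% of protein-coding genes. The difference between these counts was not tested. The largest neighbourhood, on chromosome 13 from 4049011 to 4609174, held 9 genes over 560 kb, of which Akr1c13 and, at its far end, Akr1e1 were expressed. The aldose reductase group on chromosome 6 from 34302434 to 34423142 had all 4 of its genes at the limit, with Akr1b7 just above it. The neighbourhood of Aldh3b1 on chromosome 19 held 1 expressed gene of 3, and that of Aldh1a1 and Aldh1a7 on the same chromosome held 0 of 2. Gene structure differed between the families, with a median coding length of 1554 bases for the aldehyde dehydrogenases and 969 for the aldo-keto reductases.

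**Figure D3:**
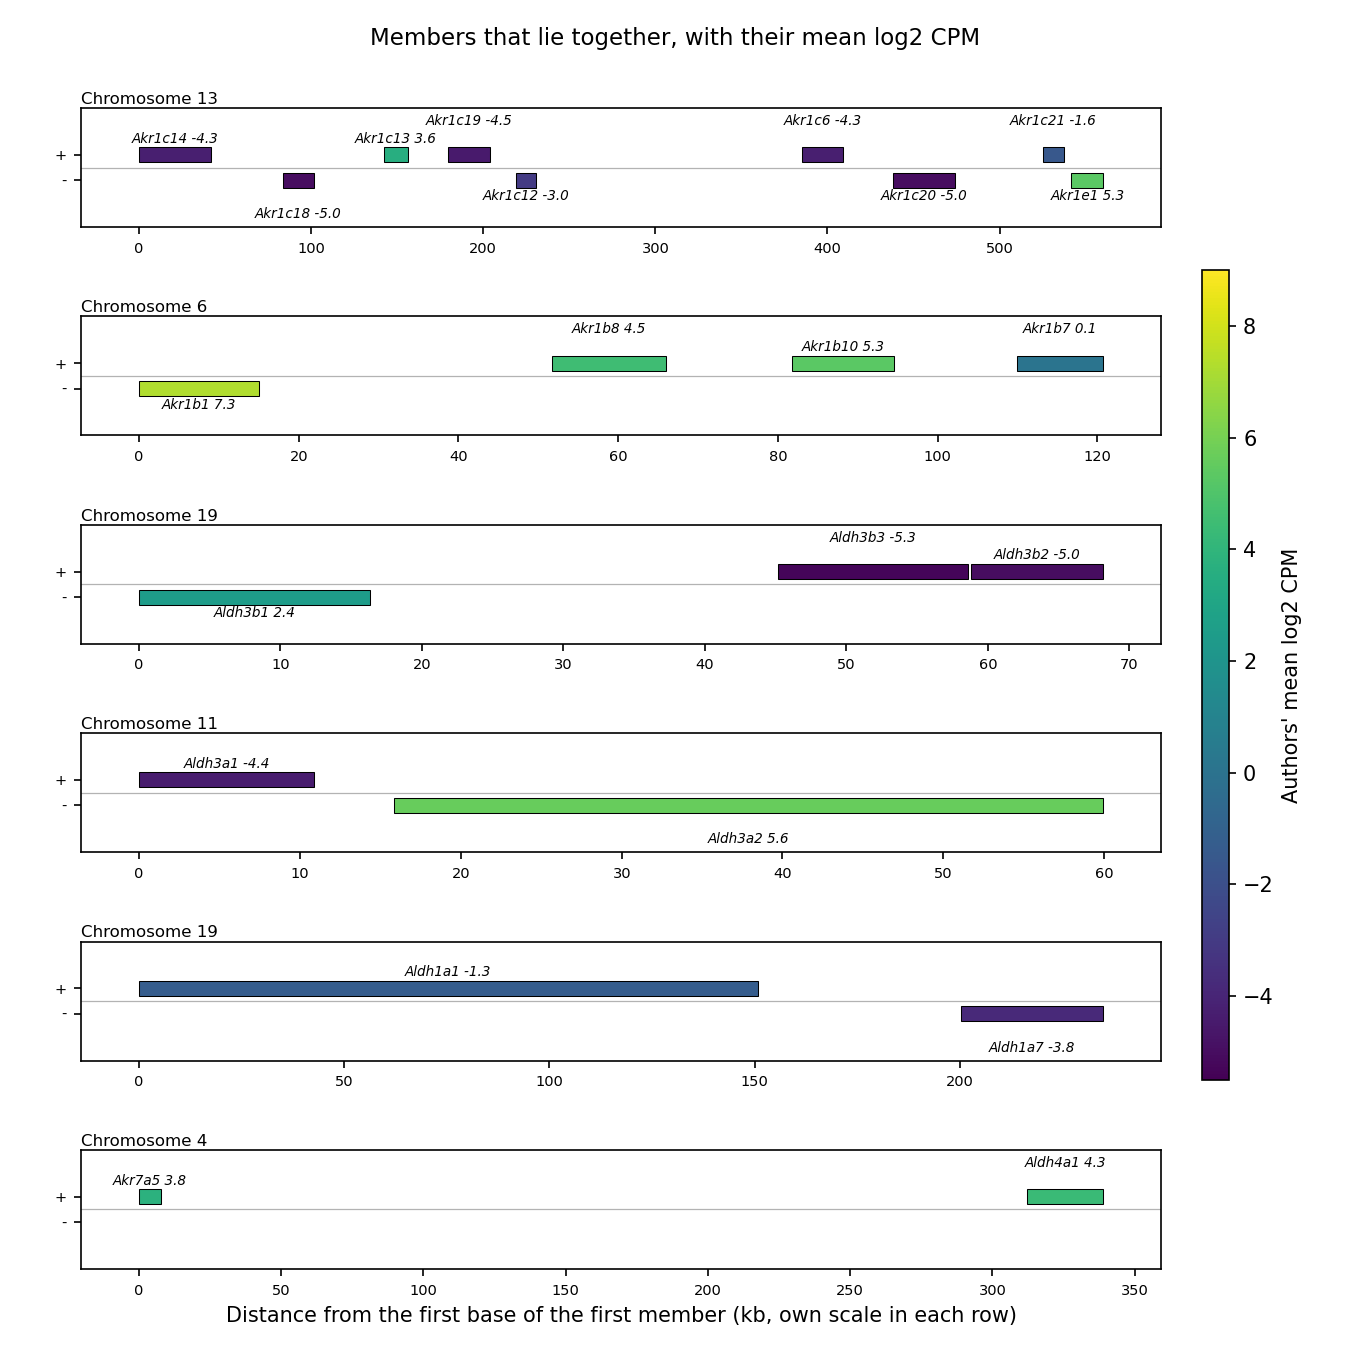
The 6 neighbourhoods with more than 1 member, with genes as boxes on the plus or minus strand (x axis, kb from the first base of the first gene) coloured and labelled by the authors' mean log2 CPM. In the top row Akr1c13 (3.57) lies among silent genes of its own group.

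Promoter windows were found in RefSeq for 29 of the 36 genes, as 31 windows (Aldh1a1 and Aldh6a1 have 2 each), and were searched for 3 short motifs on both strands. None was found for Akr1b1, Akr1c20, Aldh1a3, Aldh2, Aldh3a1, Aldh3b2 and Aldh7a1. The core of the antioxidant response element, written TGACNNNGC, was present in the windows of 4 genes, or 12.9% of the windows against 12.4% of all 32851 windows. The genes were Aldh9a1, which was expressed, and Aldh1a2, Akr1c19 and Akr1cl, which were silent. TATAA occurred in 25.8% of the windows against 24.9% of all, and CACGTG, the E-box, in 6.45% against 7.15%. No motif was thus more frequent here than among promoters at large by more than 1 percentage point. No 2 motifs overlapped in these windows except neighbouring TATAA matches in Akr1c21 and Aldh1a7. A match says only that the letters are present.

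The windows of the leading gene of each family per length are shown with their matches in capitals. Without length scaling Aldh2 (6.99 log2 CPM) lay above Aldh9a1 (6.58), but Aldh2 had no window. The Akr1a1 window (chr4:116651625-116651924, minus strand) has TATAA 54 bases before the start, and the Aldh9a1 window (chr1:167349741-167350040, plus strand) has the response element core at 87 bases before the start. The window of Aldh1a2 (chr9:71215539-71215838, plus strand) is added because it was the richest in CpG and its gene was silent, and its capitals mark the same core.
Akr1a1: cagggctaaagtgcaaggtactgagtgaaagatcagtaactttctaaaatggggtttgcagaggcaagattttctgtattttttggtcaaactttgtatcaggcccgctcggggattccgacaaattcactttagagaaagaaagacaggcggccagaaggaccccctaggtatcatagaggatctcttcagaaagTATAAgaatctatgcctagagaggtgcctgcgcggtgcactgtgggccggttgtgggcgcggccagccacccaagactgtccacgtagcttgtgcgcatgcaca
Aldh9a1: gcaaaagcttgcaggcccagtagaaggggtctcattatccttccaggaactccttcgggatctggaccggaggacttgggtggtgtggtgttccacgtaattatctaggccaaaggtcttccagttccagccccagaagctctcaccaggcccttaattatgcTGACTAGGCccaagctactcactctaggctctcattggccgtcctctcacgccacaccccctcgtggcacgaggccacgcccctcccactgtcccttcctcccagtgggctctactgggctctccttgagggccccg
Aldh1a2: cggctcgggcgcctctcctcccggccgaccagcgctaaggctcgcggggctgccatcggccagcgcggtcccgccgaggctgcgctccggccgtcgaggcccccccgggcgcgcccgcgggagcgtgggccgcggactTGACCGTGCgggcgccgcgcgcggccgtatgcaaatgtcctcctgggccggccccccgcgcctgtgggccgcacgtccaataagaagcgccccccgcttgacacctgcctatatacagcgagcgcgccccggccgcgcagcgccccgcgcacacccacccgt
The ratio of observed to expected CpG, a measure of CpG islands, had a median of 0.363 in the 17 windows of expressed genes and 0.116 in the 14 windows of silent genes, against 0.384 in all windows. A ratio over 0.6 was found for 35.8% of all windows and for 4 of the 16 expressed genes with a window (Aldh3a2, Aldh5a1, Aldh16a1 and Akr7a5, or 23.5% of the windows of expressed genes), and Akr1a1 lay just below it at 0.597. Among the 13 silent genes with a window only Aldh1a2 exceeded 0.6, with 1.11 (7.14% of the windows of silent genes). Akr1c13 was expressed with a ratio of 0.141, close to 0.150 for its silent relative Akr1c12.

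**Figure D4:**
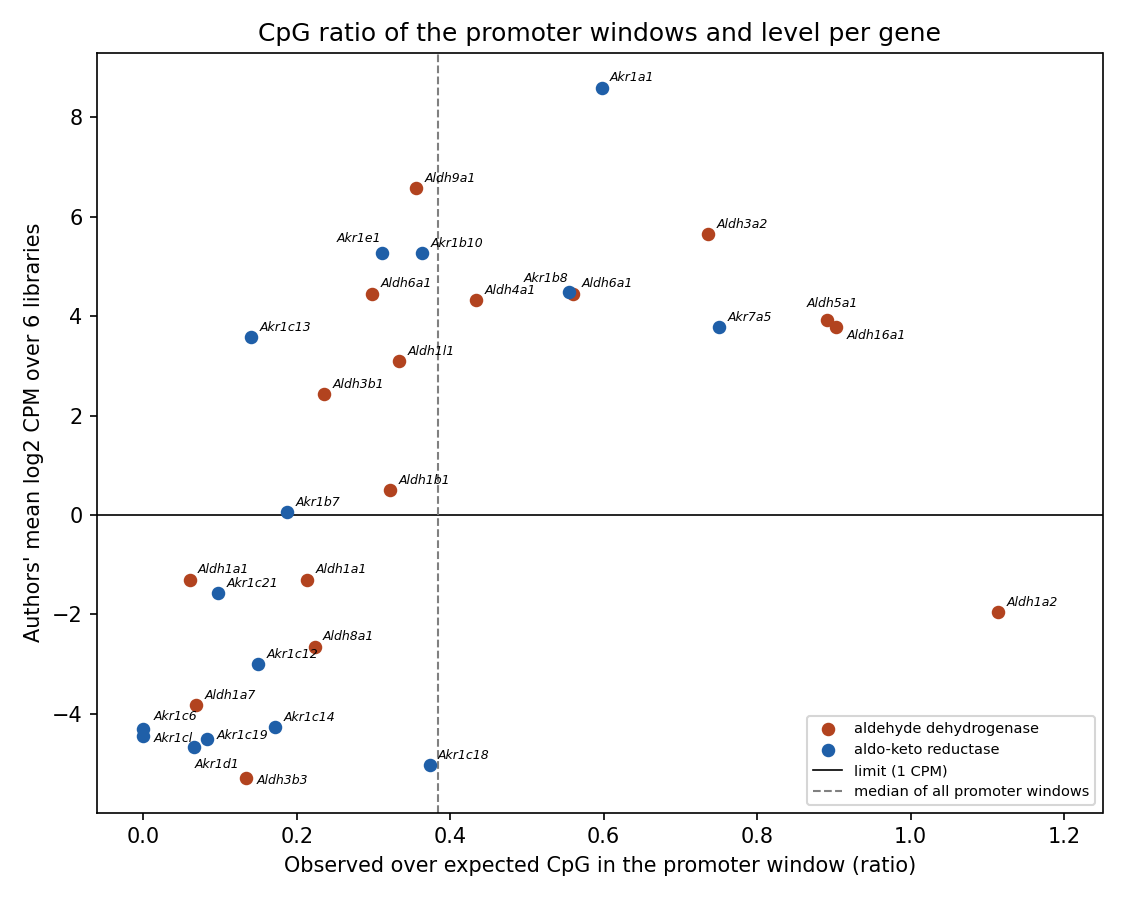
Observed over expected CpG of each of the 31 promoter windows (x axis, ratio) against the authors' mean log2 CPM of the gene (y axis). Windows of silent genes sit at ratios of 0.373 or less except that of Aldh1a2 at 1.11, and windows of expressed genes spread from 0.141 to 0.903.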

How the data were processed

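RNA of B16F10 cells (3 OLO and 3 OZO cultures, grouped by sample title) was sequenced by the study as 150-base pairs. Per the labels and methods, the authors aligned reads to mm10 with HISAT2 (2.1.0), counted them with featureCounts (2.1.1) and used limma-voom (3.58.1). Strand, multiple matches and filters in counting are not given in the sources used here. From the deposited table only the average log2 CPM of limma over all libraries was used. Its 5 other columns of values (fold changes, moderated statistics, p-values, adjusted p-values and log odds) hold the authors' own comparison and were not used, so no test was made.

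The members and lists were chosen with earlier results of these data known, and all 36 members were named. Genes without reads (6025) share the lowest mean, from which library size and products of reads were recovered. In the 12308 genes with products under 100000 the products were odd whole numbers (tolerance 1e-06) in 100%, and simulated reads of 27179 genes were recovered in 100% of the 15045 with products under the limit used. Exon lengths, overlaps and transcripts came from GENCODE M21 on GRCm38, in which 23821 of 24065 Ensembl identifiers and all 36 members were found. Coding identity was taken from global alignments of the longest coding sequences (matches over all columns). Promoters came from RefSeq. Intervals and floors cover counting error only. Python 3.11.15, numpy 2.4.6, pandas 2.3.3 and Biopython 1.88 were used.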

Additional observations from a re-analysis of the deposited data

How the results depend on the processing

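No paired analysis was possible because the value used is 1 mean over all libraries, without values of single cultures. For the same reason tests on counts, a replicate block, another normalization and leaving out each culture were not run. The number of expressed members, 20, was also 20 with a limit of -1 and was 18 with a limit of 1 on the log2 CPM scale, and 17 with a limit of 0 per kilobase. With limits of -1 and 1, 12 and 11 aldehyde dehydrogenases and 8 and 7 aldo-keto reductases were expressed. The share of the 3 leading members, 64.4%, was 60.5% with the length of the longest transcript (Akr1a1, Aldh9a1 and Aldh2 on both scales) and 62.7% without length scaling, where Akr1b1 took the place of Aldh9a1. The choice of length moved the level of a single expressed gene by up to 1.37 on the log2 scale, for Akr1b10. The length of the longest transcript, applied after the data were seen to 12 folds per kilobase between members, turned 2 of them, Akr1b8 over Akr1b10 (1.36 to 0.582) and Aldh1b1 over Aldh1a3 (1.19 to 0.884). It moved 4 by over 1.5 times, namely Akr1b8 over Akr1b10, Akr1b10 over Akr1b7, Aldh3a2 over Aldh3b1 and Aldh1a3 over Aldh1a1 (6.30 to 4.03). With a further A required at the end of the response element core, 1 member in place of 4 held it. The annotation used for length may differ from the one used for counting.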
